A study of Homo sapiens with 27 samples.

Results

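QGP-1 cells that overexpressed full-length MAML3 were compared with QGP-1 cells that received the empty vector, using the 3 libraries of each group out of 27 libraries in the study, and all 14522 genes of 23230 listed symbols that passed a filter on low counts. QGP-1 is a human pancreatic neuroendocrine tumour line. The FL group carried the full-length MAML3 cDNA with a V5 tag at its carboxyl end in the plasmid pCMV6-AC, and the vector group carried pCMV6-AC without an insert. Both were transfected with a lipid reagent, kept in RPMI with serum, and harvested on day 3 after transfection. The dEx1 group of the same line, which carried MAML3 without its first exon and the same tag, had 3 libraries. They entered the filter on low counts, the scaling and the estimate of spread. They also entered the principal components and the fits with added terms described below. The study also held BON-1, another pancreatic neuroendocrine line, and the neuroblastoma line SK-N-SH, given the same constructs. The transfection was transient and 1 cell line was used, and the labels call the replicates biological ones. Transfected and untransfected cells of a culture were not separated.

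MAML3 belongs to the Mastermind-like coactivators, which join the intracellular part of a Notch receptor and the DNA-binding protein RBPJ on Notch target genes and bring in histone acetyltransferases. Mastermind-like proteins are also known to work with other transcription factors, among them MEF2C and beta-catenin. In neuroendocrine tumours, gene fusions that join the later exons of MAML3 to another gene's start are known from pheochromocytoma and paraganglioma.

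MAML3 itself (hg19 chromosome 4, 140637907 to 141075338, minus strand) checked the labels. Its level, as estimated count scaled by library size (CPM), was 2421, 9001 and 6233 CPM in the FL libraries and 78.4, 41.3 and 101 CPM in the vector libraries. Every FL library lay far above every vector library, and the fitted log2 fold change was 6.33 (SE 0.63, adjusted p = 0.0193). Counts of the gene do not tell the plasmid's transcript from the cell's own. The other two family members were not called: MAML1 had 115, 128 and 110 CPM in FL and 97.7, 111 and 107 CPM in vector libraries, and MAML2 had 7.82, 6.30 and 2.38 CPM in FL and 4.396, 2.48 and 2.28 CPM in vector libraries.

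The libraries held 92977932 to 120254457 units of estimated count in FL and 79395945 to 92435640 in vector. Among low values, 5 units was the most frequent, and what a unit is worth in fragments is not known. Of 8 neuroendocrine markers listed, 7 averaged over 1 CPM, as did 6 of 6 epithelial and 5 of 6 pancreatic endocrine ones. NEUROD1 was at 0 in all 6 libraries, as were the neuroblastoma gene PHOX2A, the fibroblast genes COL3A1 and DCN and the T cell gene CD3E. Other members of the lists for other cell types were detected. The neuroblastoma gene HAND2 averaged 6.29 CPM in FL and 6.29 CPM in vector libraries. The fibroblast gene COL1A1 averaged 9.95 and 6.52 CPM, and the immune gene CD14 2.67 and 3.11 CPM. Summed neuroendocrine markers ran from 4703 to 8011 CPM in FL and from 4858 to 8198 CPM in vector libraries.

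The 9 QGP-1 libraries fell into separate sets that did not follow the constructs. The first principal component of log2 CPM held 39.7% of the variance and put FL 1, FL 2, dEx1 1, dEx1 2 and vector 1 on one side and FL 3, dEx1 3, vector 2 and vector 3 on the other. One set thus held 2 FL libraries and 1 vector library, and the other set 1 FL library and 2 vector libraries. On the second component, with 13.2% of the variance, the 3 FL libraries lay between 16.0 and 23.8 and the 3 vector libraries between -53.8 and -16.5, with vector 1 at the far end. The labels give no batch for these sets. For the called genes the FL minus vector difference is therefore also given within each set, and values from a fit with a term for the set are named as such.

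**Figure D1:**
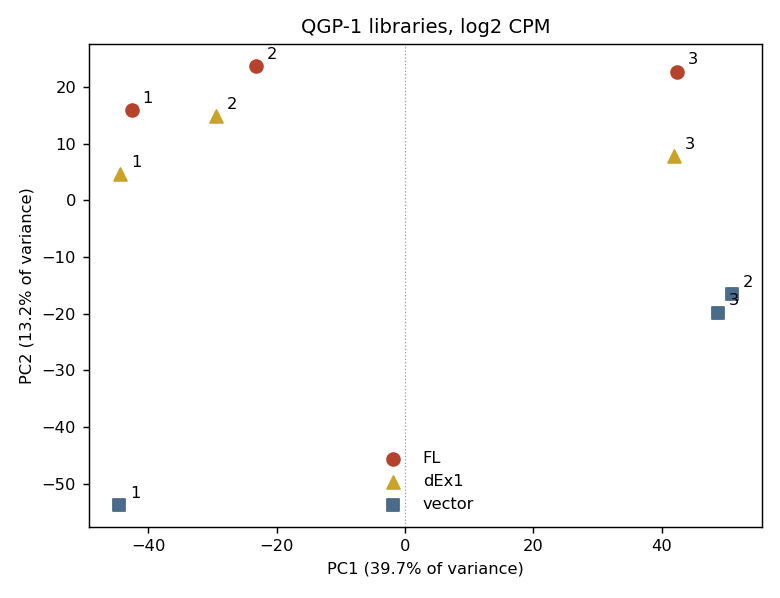
Scores of the 9 QGP-1 libraries on the first (x axis) and second (y axis) principal components of log2 CPM, with circles for FL, triangles for dEx1 and squares for vector, and the replicate number beside each point. The x axis splits the libraries into the sets named in the text, the y axis has all 3 FL libraries above all 3 vector libraries, and vector 1 stands alone at -53.8.

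Besides MAML3, 3 genes rose in FL cells and none fell. These were MMP10 and MMP1, secreted metalloproteases that digest extracellular matrix, and KLHL41, a kelch-repeat protein known from the skeletal muscle sarcomere. With MAML3 they made 4 genes past an adjusted p of 0.05 in edgeR's quasi-likelihood test, all higher, which is 0.0275% of the genes tested. Without vector 3 the count was 1, MMP10. DESeq2 in place of edgeR called 75 genes higher and 37 lower. Genes given below with no call, among them PTGS2, NR4A1, RNF6, MEN1, ESPNP and MID1IP1, were called by DESeq2. At an unadjusted p under 0.05 there were 421 genes higher (2.9%) and 316 lower (2.18%). The 3 FL libraries all lay above the 3 vector libraries for 895 genes (6.16%) and all below for 710 genes (4.89%). The median log2 fold change over all tested genes was 0.0056.

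**Figure D2:**
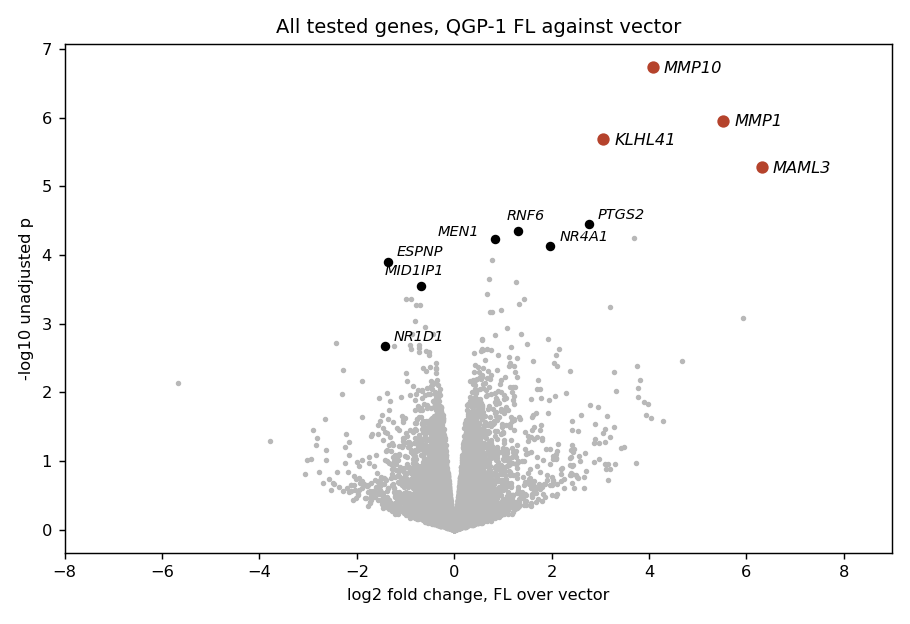
Log2 fold change of FL over vector (x axis) against the negative log10 of the unadjusted p (y axis) for 14471 tested genes, leaving out the 51 genes with no count in one of the groups. Red points passed an adjusted p of 0.05 (MMP10, MMP1, KLHL41 and MAML3, all on the right), and black points are genes named in the text that did not.

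The sequences just upstream of the called genes are shown where an entry was found, which left out MMP1. Of the 3 called genes other than MAML3, 2 matched an entry in RefSeq's promoter table (build GRCh38.p14), and the 250 bases before the annotated start are printed in the gene's own direction. MMP10 lies at chr11:102780629-102780878 on the minus strand and KLHL41 at chr2:169509452-169509701 on the plus strand. Capitals mark matches on either strand to the AP-1 motif TGANTCA or to the RBPJ core TGGGAA.
MMP10: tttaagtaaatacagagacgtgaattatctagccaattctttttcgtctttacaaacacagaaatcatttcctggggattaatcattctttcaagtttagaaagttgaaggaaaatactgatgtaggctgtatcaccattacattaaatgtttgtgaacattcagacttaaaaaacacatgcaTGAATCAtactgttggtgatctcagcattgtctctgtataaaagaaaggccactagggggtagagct
KLHL41: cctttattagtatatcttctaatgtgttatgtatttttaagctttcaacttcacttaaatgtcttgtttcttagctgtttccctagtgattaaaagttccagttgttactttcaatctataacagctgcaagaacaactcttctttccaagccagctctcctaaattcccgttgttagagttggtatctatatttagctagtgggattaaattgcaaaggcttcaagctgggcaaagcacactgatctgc
The MMP10 window held 1 AP-1 match, which begins 67 bases before the start, and no RBPJ match, and the KLHL41 window held neither. Over 35116 windows of the same length, 6.6% held the AP-1 motif and 20.8% the RBPJ core.

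MMP10 (stromelysin 2, hg19 chromosome 11, 102641233 to 102651359, minus strand) had 128, 213 and 181 CPM in the FL libraries and 12.0, 9.81 and 9.14 CPM in the vector libraries. The lowest FL library was more than an order of magnitude above the highest vector library. The log2 fold change was 4.08 (SE 0.27, adjusted p = 0.00268), and the difference within the library sets was 3.78 and 4.26. MMP10 was past the threshold in each fit that left out 1 library. In these bulk libraries, more RNA per cell and more cells that make it cannot be told apart.

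MMP1 (interstitial collagenase, hg19 chromosome 11, 102660132 to 102668891, minus strand) was next to it on the chromosome. It had 110, 182 and 135 CPM in the FL libraries and 4.004, 2.70 and 2.54 CPM in the vector libraries. The groups were again far apart, with a log2 fold change of 5.53 (SE 0.46, adjusted p = 0.00807) and differences of 5.14 and 5.67 within the sets. Without vector 2 the adjusted p was 0.0537 and without vector 3 it was 0.078, at log2 fold changes of 5.44 and 5.41.

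KLHL41 (hg19 chromosome 2, 170366212 to 170382768, plus strand) was a low gene in both groups. It had 4.398, 5.16 and 4.93 CPM in the FL libraries and 0.414, 0.654 and 0.666 CPM in the vector libraries. The FL libraries were close to each other and all above the vector libraries, with a log2 fold change of 3.06 (SE 0.27, adjusted p = 0.00998) and differences of 3.46 and 2.86 within the sets. Its adjusted p was 0.0537 without vector 2, 0.078 without vector 3 and 0.0532 in a fit of the 6 FL and vector libraries alone. The call for MAML3 was likewise lost in that fit, at 0.109, and without vector 1 (0.133), vector 2 (0.0906), vector 3 (0.130), dEx1 2 (0.0615) or dEx1 3 (0.0551).

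In the dEx1 libraries the same 3 genes had levels between those of FL and vector. MMP10 was at 27.3, 40.8 and 25.0 CPM, MMP1 at 12.5, 19.0 and 6.32 CPM and KLHL41 at 1.08, 0.715 and 0.919 CPM in dEx1 cells, below every FL library and above every vector library in each case.

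**Figure D3:**
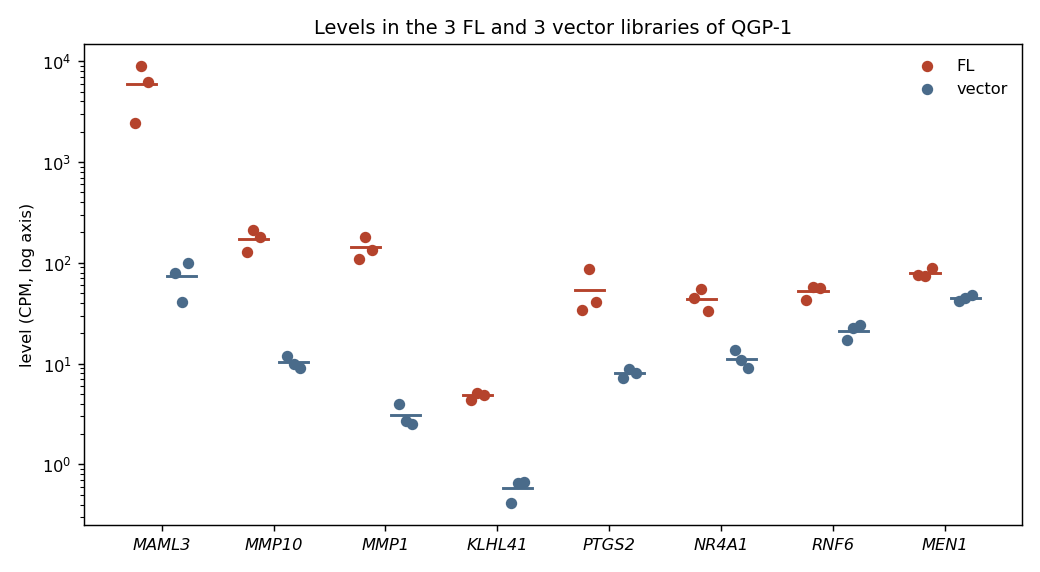
Level in CPM on a log axis for 8 genes in the 3 FL libraries (red, left of each pair) and the 3 vector libraries (blue, right), with a bar at each group's mean. No FL library overlaps a vector library for any of the 8 genes, and MAML3, MMP10, MMP1 and KLHL41 passed an adjusted p of 0.05.

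The metalloprotease genes around MMP10 and MMP1 were examined next. In hg19, 9 of them lie within 435 kb of chromosome 11 (102391239 to 102826461), in the order MMP7, MMP20, MMP27, MMP8, MMP10, MMP1, MMP3, MMP12 and MMP13. Of these, 6 passed the filter on low counts, and in 5 of the 6 the FL libraries all lay above the vector libraries, as they did for 6.16% of all tested genes. MMP10 and MMP1 led to the choice of this region, so their place in the count was fixed beforehand. MMP7, MMP3 and MMP12 were near or at 0 in vector cells and may have passed the filter through the FL libraries alone. The count is therefore a description, and the share over all tested genes gives no test of it.

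MMP12 (macrophage elastase) had 3.02, 2.79 and 3.14 CPM in the FL libraries and was at 0 in all 3 vector libraries. Its FL mean was 17.3-fold above an assumed floor of 15 units per library, and its adjusted p against vector was 0.376. MMP3 (stromelysin 1) had 1.13, 1.90 and 0.311 CPM in FL and 0.0559, 0.123 and 0.153 CPM in vector libraries. MMP7 (matrilysin) had 0.457, 0.501 and 0.653 CPM in FL and 0, 0.0617 and 0 CPM in vector libraries. None of these 3 genes passed the test in the fit of the 9 QGP-1 libraries, and their vector levels lie under the floor of 0.172 CPM. MMP12 did pass in a fit of all 27 libraries (adjusted p = 0.0490), in DESeq2 and without dEx1 1. MMP7 passed in DESeq2 (adjusted p = 0.00326). At the far end of the cluster, MMP13 (collagenase 3) overlapped between the groups, at 4.69, 6.23 and 14.96 CPM in FL and 1.78, 11.4 and 13.9 CPM in vector libraries.

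Metalloproteases elsewhere in the genome were counted in the same way. Of 13 such genes, 9 were tested, 1 had FL libraries all above vector, 1 all below, and 7 overlapped, against 6.16% above and 4.89% below over all tested genes. MMP25, a membrane-anchored enzyme known from leukocytes, was the one above, with 5.64, 2.48 and 2.02 CPM in FL and 0.660, 0.999 and 0.633 CPM in vector libraries (adjusted p = 0.553). MMP2 (gelatinase A) was the most abundant of those 9, with 97.0, 98.9 and 166 CPM in FL and 87.2, 161 and 168 CPM in vector libraries, and the groups overlapped. The metalloprotease list as written, with TIMP inhibitors, had 14 tested members, 7 with a positive and 7 with a negative log2 fold change, and a median of 0.0040. The 2 called higher were MMP10 and MMP1, which had prompted the look at this family, and none was called lower. Over all tested genes 0.0275% were called higher.

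Below the called genes came several with separate groups that did not pass the adjusted threshold, and they are given as values. PTGS2, the inducible cyclooxygenase that starts prostaglandin synthesis, had 34.04, 87.5 and 41.3 CPM in FL and 7.16, 8.79 and 8.12 CPM in vector libraries, with a log2 fold change of 2.76 (SE 0.35, adjusted p = 0.103). Its vector libraries were close together while FL 2 stood above FL 1 and FL 3. NR4A1, an orphan nuclear receptor induced early after many stimuli, had 44.4, 54.4 and 33.3 CPM in FL and 13.7, 10.99 and 8.99 CPM in vector libraries (1.97, SE 0.28, adjusted p = 0.120). NR4A1 was on the list of MEF2 targets and muscle genes, whose 8 tested members held no call and had a median log2 fold change of 0.13.

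RNF6, a ubiquitin ligase, had 42.5, 57.8 and 56.3 CPM in FL and 17.1, 22.7 and 23.9 CPM in vector libraries (log2 fold change 1.30, SE 0.17, adjusted p = 0.108). MEN1, which encodes menin, the tumour suppressor lost in multiple endocrine neoplasia type 1 and in many pancreatic neuroendocrine tumours, had 76.2, 74.6 and 89.1 CPM in FL and 41.4, 45.0 and 47.9 CPM in vector libraries (0.84, SE 0.11, adjusted p = 0.108). The FL and vector groups of both genes were separate. In dEx1 cells RNF6 averaged 51.4 CPM and MEN1 78.2 CPM, values within the FL range. The FL and dEx1 comparisons share the vector libraries.

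Further genes higher in all 3 FL libraries included ITGA2, the alpha subunit of a collagen-binding integrin, with 19.8, 18.3 and 17.7 CPM in FL and 9.99, 11.8 and 12.3 CPM in vector libraries (adjusted p = 0.251). CTSB, the lysosomal protease cathepsin B, had 78.5, 71.6 and 82.1 CPM in FL and 42.8, 50.1 and 52.1 CPM in vector libraries (adjusted p = 0.307). In a fit of all 27 libraries the adjusted p of CTSB was 0.0490. TWSG1, a secreted modulator of BMP signalling, had 16.1, 17.9 and 17.3 CPM in FL and 8.21, 10.0 and 11.7 CPM in vector libraries (adjusted p = 0.331). For all 3 genes the FL libraries differed little among themselves.

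On the lower side no gene passed the test. The gene with the lowest unadjusted p was ESPNP, a pseudogene of the actin-bundling protein espin, whose reads could be shared with its parent gene. It had 1.80, 1.67 and 2.21 CPM in FL and 5.01, 4.59 and 5.05 CPM in vector libraries (log2 fold change -1.37, SE 0.21, adjusted p = 0.165). MID1IP1, a regulator of fatty acid synthesis, had 99.3, 96.0 and 97.8 CPM in FL and 178, 135 and 156 CPM in vector libraries (-0.68, SE 0.12, adjusted p = 0.273). GXYLT1, which adds xylose to sugars on Notch receptors, had 19.0, 20.9 and 19.6 CPM in FL and 28.6, 45.2 and 44.7 CPM in vector libraries (-0.99, SE 0.18, adjusted p = 0.307). IDI1, an enzyme of the cholesterol pathway, had 43.6, 47.9 and 34.1 CPM in FL and 114, 78.4 and 103 CPM in vector libraries (-1.23, SE 0.28, adjusted p = 0.553). In each of these 4 genes every FL library was below every vector library.

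With a term for the library set, 31 genes passed an adjusted p of 0.05 (0.213% of those tested), 24 higher (0.165%) and 7 lower (0.0482%), and all 4 genes called without the term were among them. PTGS2, NR4A1, RNF6, MEN1, ITGA2, CTSB and TWSG1 were among those higher, with adjusted p of 0.0444, 0.00272, 0.00797, 0.00272, 0.0389, 0.0349 and 0.0444. ESPNP, at 0.0467, and MID1IP1, at 0.0257, were among those lower, as were NR1D1 and PER1, repressors of the circadian clock, both at 0.0160. NR1D1 had 46.6, 52.0 and 72.6 CPM in FL and 97.5, 183 and 179 CPM in vector libraries, so that vector 1 was closer to FL than the other vector libraries were. The sets were read from the same libraries, and what they stand for was not tested.

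Notch pathway genes showed no called change. Among Notch ligands, 6 of 7 were tested, none was called, 2 were lower at an unadjusted p under 0.05 (2.18% of all tested genes were), and the median log2 fold change was -0.24. DLL1, a Delta-type ligand, had 73.5, 80.7 and 71.7 CPM in FL and 91.8, 94.4 and 84.6 CPM in vector libraries (-0.26, SE 0.10, adjusted p = 0.927), with every FL library below every vector library. DLL4, another Delta-type ligand, had 47.1, 39.9 and 59.1 CPM in FL and 55.8, 67.4 and 70.2 CPM in vector libraries, and the groups overlapped.

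Receptors and processing enzymes of the pathway had 14 tested members, 1 higher and 1 lower at an unadjusted p under 0.05, against 2.9% and 2.18% of all tested genes. LFNG, the Lunatic fringe glycosyltransferase that modifies Notch receptors, had 165, 148 and 195 CPM in FL and 216, 218 and 229 CPM in vector libraries (log2 fold change -0.39, adjusted p = 0.894). NOTCH2 had 9.76, 10.7 and 6.11 CPM in FL and 6.97, 3.88 and 3.80 CPM in vector libraries, and FL 3 fell inside the vector range. In the nuclear complex, 12 members were tested with a median of 0.10. CREBBP, a histone acetyltransferase that Mastermind-like proteins recruit, had 111, 131 and 114 CPM in FL and 81.3, 92.6 and 103 CPM in vector libraries (0.36, adjusted p = 0.915).

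The classical Notch targets were divided. Of 20 tested, 10 had a positive and 10 a negative log2 fold change, with a median of 0.0046, or -0.21 with the set term, and none called. With the set term 6 of the 20 were lower at an unadjusted p under 0.05 and none higher, against 8.38% lower and 8.82% higher over all tested genes. Without that term HEY1, a transcriptional repressor, was the only one at an unadjusted p under 0.05, with 7.42, 10.98 and 10.96 CPM in FL and 10.5, 16.4 and 17.6 CPM in vector libraries (-0.60, SE 0.24, adjusted p = 0.937). HES1, the repressor most often used as a readout of Notch, had 53.7, 50.8 and 45.9 CPM in FL and 66.0, 49.5 and 53.9 CPM in vector libraries. The groups of both genes overlapped.

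Chemokines that NF-kB is known to induce were low throughout. CXCL2 had 0.403, 1.86 and 1.70 CPM in FL libraries and was at 0 in all 3 vector libraries (adjusted p = 0.454). Its FL mean was 7.66-fold above the assumed floor, with FL 1 the nearest to it. CXCL8 had 0.316, 5.94 and 1.81 CPM in FL and 0.168, 0.284 and 0.142 CPM in vector libraries (adjusted p = 0.702). FL 2 was the highest library for both, as it was for MAML3 and PTGS2. Of 11 tested members of that list none was called in the fit of the 9 QGP-1 libraries, and the median was 0.12. CXCL2 did pass the threshold in a fit of all 27 libraries (adjusted p = 0.0257) and in DESeq2 (4.54e-05). CXCL8 passed in DESeq2 (adjusted p = 0.00719).

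Pancreatic and neuroendocrine identity genes showed no call in the fit of the 9 QGP-1 libraries. GCG, the glucagon gene, had 1.36, 0.863 and 1.40 CPM in FL and was at 0 in the vector and dEx1 libraries (adjusted p = 0.241). Its FL mean was 7.01-fold above the assumed floor, and DESeq2 called it (adjusted p = 1.54e-08). SST, the somatostatin gene and far more abundant, had 1165, 959 and 350 CPM in FL and 1607, 370 and 397 CPM in vector libraries, levels that followed the library sets. Of 20 granin and secretory granule genes tested, 18 had a negative log2 fold change and the median was -0.21, but with the set term the median was 0.05. CHGA, the granin used as a neuroendocrine marker, had 584, 544 and 948 CPM in FL and 689, 912 and 1008 CPM in vector libraries. Cell cycle genes turned the other way, with 26 of 28 positive and a median of 0.21, against -0.09 with the set term. Under that term 1 was higher and 6 lower at an unadjusted p under 0.05, against 8.82% and 8.38% of all tested genes.

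Ductal and epithelial genes had 14 tested members, none called, 4 lower at an unadjusted p under 0.05 (2.18% of all tested genes were) and a median of -0.08. With the set term 6 were lower at an unadjusted p under 0.05 (8.38% of all tested genes were) and the median was -0.19. CLDN3, a tight junction claudin, had 203, 191 and 208 CPM in FL and 282, 232 and 242 CPM in vector libraries (-0.33, SE 0.10, adjusted p = 0.894). KRT18, a keratin of simple epithelia, had 1339, 1227 and 1219 CPM in FL and 1759, 1361 and 1442 CPM in vector libraries (-0.27, SE 0.12, adjusted p = 0.974). Both had separate groups with small differences.

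Transcription factors and feedback genes of the MAPK pathway, 22 in all, held no call either. The AP-1 subunit gene FOS had 49.2, 76.0 and 76.8 CPM in FL and 61.7, 84.2 and 91.4 CPM in vector libraries, and the groups overlapped. DUSP6, a phosphatase that ERK signalling induces to limit itself, had 146, 122 and 151 CPM in FL and 252, 160 and 197 CPM in vector libraries (-0.54, SE 0.17, adjusted p = 0.879). DUSP4, a related phosphatase, had 298, 302 and 92.7 CPM in FL and 120, 89.1 and 89.5 CPM in vector libraries, with FL 3 at the vector level.

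**Figure D4:**
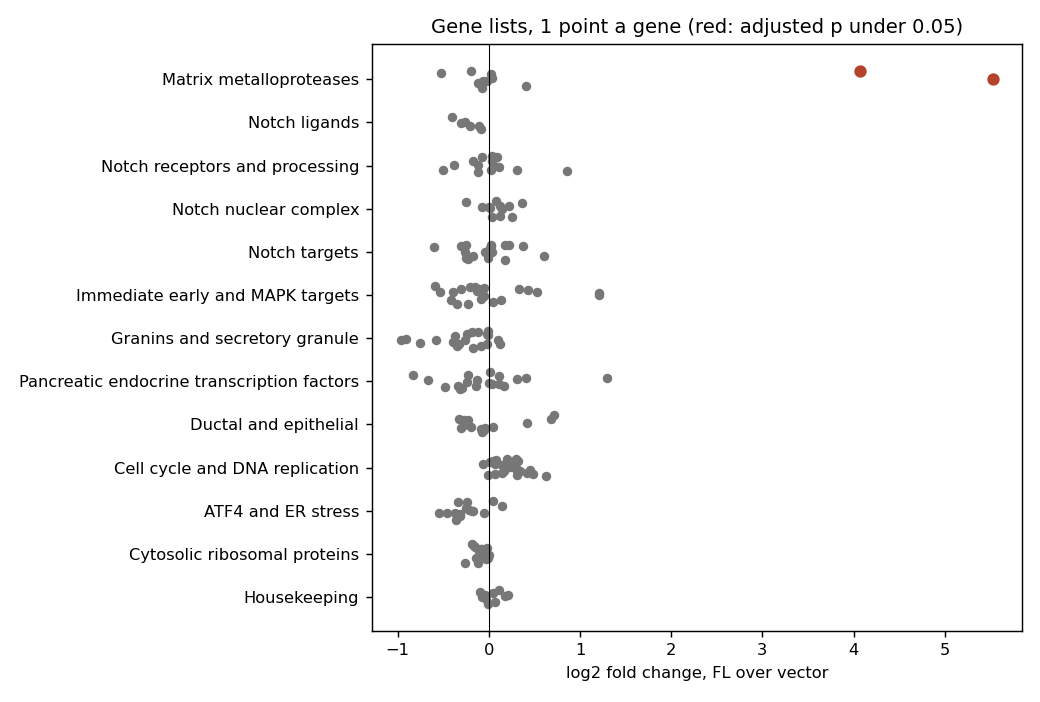
Log2 fold change of FL over vector (x axis) for the tested members of 13 gene lists (rows), 1 point a gene, leaving out genes that averaged 0.2 CPM or less in either group. Red points passed an adjusted p of 0.05. They are MMP10 and MMP1, and the points of the other lists lie mostly within 1 of zero.

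The FL effect in QGP-1 was set against the FL effect in BON-1 and SK-N-SH in 1 fit of all 27 libraries, scaled together, with 16883 genes tested. None of these effects share a library. MMP1 had 102, 168 and 127 CPM in QGP-1 FL and 3.74, 2.52 and 2.37 CPM in QGP-1 vector libraries, 190, 152 and 277 CPM in BON-1 FL and 203, 55.0 and 148 CPM in BON-1 vector libraries, and 449, 658 and 618 CPM in SK-N-SH FL and 90.0, 101 and 38.9 CPM in SK-N-SH vector libraries. QGP-1 vector cells thus had the lowest MMP1 level of these 3 lines. The effect was larger in QGP-1 than in BON-1 by 4.91 (SE 0.63, adjusted p = 0.00214). It was larger than in SK-N-SH by 2.62 (SE 0.61, adjusted p = 0.0947, or 0.00293 in DESeq2).

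MMP10 had 48.3, 42.7 and 64.8 CPM in BON-1 FL and 35.8, 10.0 and 19.8 CPM in BON-1 vector libraries, and 62.9, 82.9 and 102 CPM in SK-N-SH FL and 7.76, 10.8 and 5.42 CPM in SK-N-SH vector libraries. Its effect exceeded that in BON-1 by 2.82 (SE 0.49, adjusted p = 0.0628) and that in SK-N-SH by 0.70 (SE 0.49, adjusted p = 0.821). The difference from BON-1 was called with a minimum of 2 CPM (adjusted p = 0.0466) and in DESeq2 (adjusted p = 5.71e-05). KLHL41 exceeded BON-1 by 2.18 (SE 0.59, adjusted p = 0.556) and SK-N-SH by 2.58 (SE 0.60, adjusted p = 0.0947, or 0.00658 in DESeq2). NR4A1 differed by 0.17 (SE 0.41) from BON-1 and 0.76 (SE 0.41) from SK-N-SH, and in this fit its FL effect passed the threshold in QGP-1 (1.97, adjusted p = 0.00454), BON-1 (1.80, adjusted p = 0.0234) and SK-N-SH (1.21, adjusted p = 0.0394). Genes called in that fit were 0.113% of those tested for QGP-1, 0.0237% for BON-1 and 1.36% for SK-N-SH.

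In all, 2 genes had a called difference in FL effect between QGP-1 and BON-1 (0.0118% of those tested), both higher in QGP-1. They were MMP1 and IFT57. IFT57 falls outside the naming rule, was named after its values were seen, and had no more than 0.261 CPM in any QGP-1 FL or vector library. Between QGP-1 and SK-N-SH there were 27 (0.16%), 11 higher (0.0652%) and 16 lower (0.0948%) in QGP-1.

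**Figure D5:**
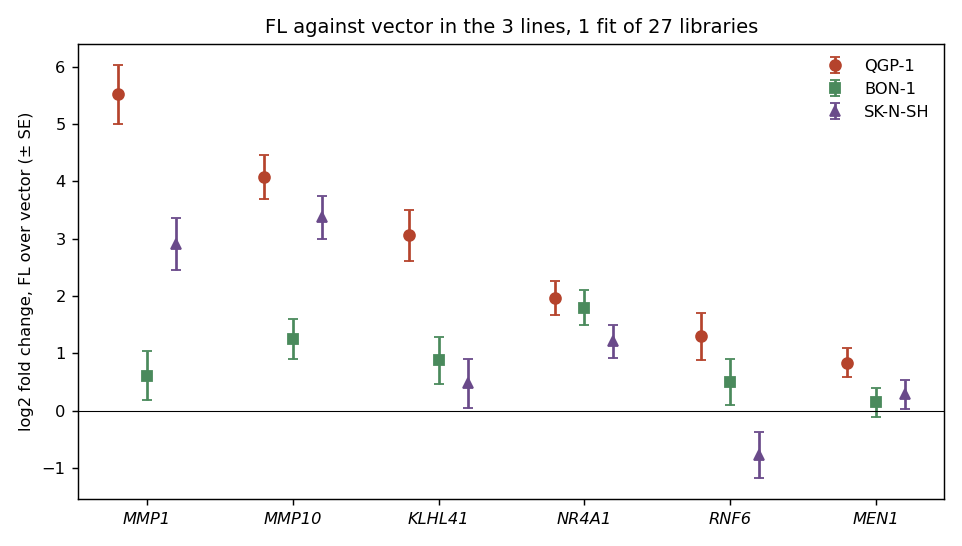
Log2 fold change of FL over vector with its SE (y axis) for 6 genes in QGP-1 (circles), BON-1 (squares) and SK-N-SH (triangles), from the fit of 27 libraries. MMP1 shows the widest gap, with 5.52 in QGP-1 against 0.61 in BON-1, while NR4A1 is at 1.97, 1.80 and 1.21.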

How the data were processed

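RNA was sequenced from TruSeq mRNA libraries. Per the submitters' processing notes, the tools were Trimmomatic, HISAT2, StringTie and the build hg19, and per the study's design text these trimmed adapters, aligned reads and estimated abundance. What the authors deposited is a table of estimated counts, all whole numbers, with a row for each gene. Versions, annotation and strand of counting are not given in the sources used here. Genes were filtered with filterByExpr, scaled with TMM and tested with edgeR's quasi-likelihood test (edgeR 4.0.16, limma 3.58.1, R 4.3.3) in a fit of the 9 QGP-1 libraries by group, with p adjusted by Benjamini-Hochberg over all 14522 genes and a threshold of 0.05. Fold changes are FL over vector on the log2 scale. Differences between lines came from 1 fit of 27 libraries. Of 23234 rows, 4 repeated a symbol. Among low values 5 units was the most frequent, and a floor of 15 units per library, taken to stand for 3 fragments, is an assumption and covers counting error only. DESeq2 1.42.0 was an alternative. The methods were tested on simulated data that held no library sets, so that test does not cover the sets. Promoter sequences are RefSeq's, and 10872 of 14522 tested genes matched its table by symbol. Figures used matplotlib 3.10.9.

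The members, the 37 gene lists and the tests were chosen with earlier results of these data known. Genes are named by rule, excluding MAML3 from rankings: in each direction up to 15 with separate groups and at least 2 CPM in the higher group, called genes by fold change and then others by lowest unadjusted p, up to 8 from the fits with a replicate block or library set term, up to 4 per list, and 5 per direction for contrasts between lines. MMP2, MMP13, MMP25, SST, HES1, FOS, CLOCK, NPAS2, ARNTL, NR1D2, PER2, CRY1, CRY2, BHLHE40 and IFT57 fall outside it and were named after their values were seen.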

Additional observations from a re-analysis of the deposited data

Results flagged for a closer look

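The results here drew attention because the effect of FL against vector differed between QGP-1 and another line in the fit of 27 libraries with an adjusted p under 0.05. For MMP1 the effect was higher in QGP-1 than in BON-1 by 4.91 on the log2 scale, with FL above vector in all QGP-1 libraries and overlapping groups in BON-1.

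Against SK-N-SH, 5 genes named by the rule had a higher effect in QGP-1. SORL1, a sorting receptor, differed by 1.71, with 40.2, 38.8 and 44.5 CPM in QGP-1 FL and 22.3, 33.4 and 35.2 CPM in QGP-1 vector libraries, against 14.3, 13.5 and 13.6 CPM in SK-N-SH FL and 33.1, 33.1 and 33.8 CPM in SK-N-SH vector libraries. MMP24, a membrane-type metalloprotease, differed by 1.75 and averaged 39.2 CPM in QGP-1 FL and 38.5 CPM in QGP-1 vector libraries. PPM1D, a phosphatase of the p53 pathway, differed by 1.19 and averaged 41.1 CPM in QGP-1 FL and 38.2 CPM in QGP-1 vector libraries. For MMP24 and PPM1D the QGP-1 groups were close in level, so the difference lay mostly in a negative FL effect in SK-N-SH. PPM1D was no longer called without any 1 of the 6 QGP-1 libraries (adjusted p of 0.0645 to 0.131) or with no filter on low counts (0.0577). CCDC110 (6.64) and OVOL2 (5.85) were near or at 0 in every SK-N-SH library, so these values depend on very low counts, and with counts divided by 5 their adjusted p was 0.212 and 0.612. OVOL2 was also not called with no filter on low counts (0.0502) or without QGP-1 FL 1, FL 2, vector 2 or vector 3 (0.0565 to 0.0788).

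A lower effect in QGP-1 than in SK-N-SH was found for 5 genes of the rule. WNT7B, a Wnt ligand, differed by -3.69 and averaged 3.12 CPM in QGP-1 FL and 2.71 CPM in QGP-1 vector libraries, against 11.1 CPM in SK-N-SH FL and 0.746 CPM in SK-N-SH vector libraries. DLL4, a Notch ligand, differed by -4.98 and averaged 45.4 CPM in QGP-1 FL and 60.1 CPM in QGP-1 vector libraries, against 1.81 CPM in SK-N-SH FL and 0.077 CPM in SK-N-SH vector libraries. The SK-N-SH vector libraries had 0, 0.0945 and 0.135 CPM of DLL4, so the size of its difference depends on very low counts. KISS1R (-9.41), RNLS (-7.94) and DMKN (-8.28) were at 0 in the SK-N-SH vector libraries, so these values depend on the prior count and give no size. In QGP-1 the FL effect of these 10 genes did not pass the threshold in that fit.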

How the results depend on the processing

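The count of genes called for QGP-1 FL against vector, 4, was the same with no filter on low counts, a minimum of 2 CPM, DESeq2 size factors, counts divided by 5 and MAML3 left out of the scaling. DESeq2 in place of edgeR gave 112, all 27 libraries in 1 fit 19, the library set term 31 and the 6 compared libraries alone 2. Leaving out 1 library gave 1 to 6, with 1 gene, MMP10, called without vector 3. FL and vector libraries of the same number deviated together in replicates 1 and 3 (r of 0.44 and 0.40) but not in replicate 2 (-0.14), so they were not taken as paired. With the replicate block 8 genes were called, all 4 among them with PTGS2 and RNF6 (adjusted p = 0.0226 each), NR4A1 (0.0160) and MEN1 (0.0343). With the block in the 6 libraries 0 were called (edgeR, 731 at an unadjusted p under 0.05), with adjusted p of 0.102 for MMP10 and MMP1, 0.177 for KLHL41 and 0.339 for MAML3. For QGP-1 minus BON-1, with 2 genes called, DESeq2 gave 49, the block 12 (MMP10 at 0.0410 among them), counts divided by 5 gave 1, and leaving out 1 library 1 (vector 3) to 5 (FL 3). For QGP-1 minus SK-N-SH, with 27 called, DESeq2 gave 272, the block 309 (MMP1 at 0.0199 and KLHL41 at 0.00367 among them) and leaving out 1 library 12 to 31, with 17 without FL 1 and 12 without FL 2. Of 1509 results of FL against vector for 76 named genes under these alternatives, 1416 kept direction and side of the threshold, 15 lost and 65 gained a call, and 13 changed sign, all in genes with no call. Of 334 for the differences between lines, 305 kept both, 14 lost and 14 gained a call, and 1 changed sign. MMP13 gave 0.11 with the block, 0.19 with the block in 6 libraries, 0.96 with the set term and -0.72 to 0.39 without 1 library. MMP2 gave 0.085 with the set term. SST gave -0.35 with the set term and -0.31 to 1.09 without 1 library. NR4A1 in QGP-1 minus BON-1 gave -0.0035 to 0.33 without 1 library. The causes were not tested. What a unit is worth in fragments is not known, which limits what levels under 0.172 CPM can show.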

Other observations

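Genes of the circadian clock and its outputs were gathered after the values of NR1D1, PER1 and DBP had been seen, so they are described with no test. Of 19 such genes, all tested, 15 had a negative log2 fold change in FL cells, the median was -0.22, and the FL libraries all lay below the vector libraries for 9 and above them for 1, against 4.89% below and 6.16% above over all tested genes. DBP, a transcription factor that follows the clock, had 9.04, 6.55 and 7.69 CPM in FL and 13.1, 14.8 and 12.4 CPM in vector libraries (adjusted p = 0.326). PER1, a repressor of the core loop, had 16.6, 15.5 and 11.7 CPM in FL and 26.6, 23.8 and 21.9 CPM in vector libraries (adjusted p = 0.553, or 0.0160 with the library set term, at a log2 fold change of -0.85). BHLHE41, another repressor, had 4.34, 5.84 and 8.13 CPM in FL and 8.27, 20.0 and 19.2 CPM in vector libraries (adjusted p = 0.879), with vector 1 nearest to FL. CLOCK, an activator of the loop, was the gene above, with 82.9, 73.8 and 70.0 CPM in FL and 40.0, 61.7 and 65.7 CPM in vector libraries. NPAS2 was among those below, with 32.5, 32.9 and 36.7 CPM in FL and 40.2, 41.4 and 43.3 CPM in vector libraries. ARNTL, NR1D2, PER2, CRY1, CRY2 and BHLHE40 were among those whose groups overlapped. NR1D1, PER1, DBP and BHLHE41 had dEx1 means of 65.2, 15.9, 8.39 and 5.65 CPM. The labels give the day of harvest and no hour.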
